A study of Homo sapiens with 9 samples.

Results

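The comparison set 1 clone carrying the lamin B1 construct, LmnB1_16, against 1 clone carrying the control construct, mCherry_3. Both derive from the cell line hTERT RPE-1, human epithelium of the retinal pigment layer made immortal with telomerase. The members were the 2 LmnB1_16 libraries and the 2 mCherry_3 libraries, 4 of the 8 H3K9me3 libraries in the series, chosen because this pair of clones has the replicates that agree best. LmnB1_16 cells stably overexpressed lamin B1 as a fusion to mCherry, and mCherry_3 cells overexpressed the fluorescent protein mCherry alone. All 4 libraries came from cells given 0.05 ug/mL doxycycline for 24 hours, and each clone was profiled in 2 biological replicates. Each construct is represented here by 1 clone, so the construct and the clone cannot be told apart. The promoter behind the constructs and the level of lamin B1 in these cells were not analysed here.

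H3K9me3, trimethylated lysine 9 of histone H3, is the mark of constitutive heterochromatin, where it is bound by HP1 proteins and covers gene-poor sequence, repeats and large tandem gene families. Lamin B1 is a farnesylated filament protein of the nuclear lamina, the meshwork under the inner nuclear membrane, and much silent chromatin touches that meshwork. The mark was profiled by Cut&Run, in which a nuclease tethered to the antibody releases the marked DNA for sequencing. Whether lamin B1 in excess alters chromatin organization is the subject given in the title of the series.

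The unit of comparison was the share of sequence inside the domains that the authors listed for each library. A domain was listed only above a log2 enrichment over input of about 0.6, so unlisted sequence may still carry the mark below that level. In a population of cells, a mark present in more cells and a denser mark in each cell cannot be told apart. The clones were called apart over a bin, gene or chromosome when both libraries of one clone lay above both of the other, and the gap is the distance between the nearest libraries of the 2 clones. The read counts of the mCherry_3 replicates could not be told from sampling noise. Over 227 domains with identical coordinates in both lists their chi-square per degree of freedom was 1.03 (chi-square test over domains, p = 0.353). Pairs of libraries from different clones gave 3.34 to 5.38 in the same test. It covers only domains with identical ends, and 89.0 Mb was listed in only 1 of the mCherry_3 replicates. They were counted as 1 sample in means and tests, which leaves 2 LmnB1_16 samples against 1, and counts with all 4 libraries as separate samples are given beside the limma results. Over 647 such domains the LmnB1_16 replicates gave a chi-square per degree of freedom of 1.10, above sampling noise (chi-square test over domains, p = 0.0393). With so few samples, p-values measure only the spread between these libraries.

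The lists differed in depth of enrichment, and LmnB1_16 replicate 2 stood apart on chromosome X. Reads inside domains numbered 10313953 and 9022404 for LmnB1_16 replicates 1 and 2, and 6953105 and 6862557 for mCherry_3. Over the sequence listed in all 4 libraries the median log2 enrichment was 1.15 and 0.94 in LmnB1_16 and 0.90 and 0.88 in mCherry_3. The 0.6 floor thus lay furthest below the typical enrichment in LmnB1_16 replicate 1. On chromosome X, the domains of LmnB1_16 covered 41.3 Mb in replicate 1 and 21.7 Mb in replicate 2, against 41.3 and 41.6 Mb in mCherry_3. Counts are therefore also given with the lists trimmed, from their lowest enrichment upward, to an equal covered length, and with each floor set at an equal distance below the library's own typical enrichment. Both ways cut mainly the LmnB1_16 lists, above all replicate 1, since mCherry_3 replicate 2 set the common length and distance. Bins and genes lower with LmnB1_16 could therefore hardly lose their gap. Of 15 housekeeping genes, such as ACTB and GAPDH, and 18 genes of senescence and secretion, none lay in a domain in any of the 4 libraries.

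The LmnB1_16 lists held more sequence, in more and shorter domains. Domains on the 22 autosomes and X numbered 11317 and 7123 in LmnB1_16 and 6111 and 6055 in mCherry_3. Summed over all domains, LmnB1_16 had 610 and 534 Mb listed, and mCherry_3 had 529 and 528 Mb. The mean was 572 Mb ± 53.8 (SD, n = 2) for LmnB1_16 and 528 Mb for mCherry_3 (n = 1). Replicate 1 lay far above the other 3 libraries, while replicate 2 lay 5.85 Mb above the mCherry_3 mean. Without replicate 2 the difference was 81.9 Mb. The difference of 43.9 Mb was smaller than the spread between the LmnB1_16 replicates (exact permutation test, two-sided, p = 0.667, where 0.333 is the smallest p this design allows). On the autosomes alone the values were 569 and 512 Mb against 487 and 486 Mb, so that both LmnB1_16 libraries stood clear of mCherry_3. The autosomal means were 540 Mb ± 39.9 (SD, n = 2) and 487 Mb (n = 1, exact permutation p = 0.667). Lists cut to equal covered length have no such difference by construction.

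Both ends of the length range were fuller in LmnB1_16. Its median domain length was 8 and 11 kb, against 17 and 18 kb in mCherry_3 (exact permutation p = 0.333, the smallest possible). Domains under 10 kb numbered 6427 and 3168 against 1632 and 1457. Domains over 1 Mb numbered 120 and 82 against 51 and 49. Domains from 100 kb to 1 Mb were fewer in LmnB1_16, with 841 and 879 against 1124 and 1171. Those from 10 to 100 kb numbered 3929 and 2994 against 3304 and 3378, so the clones overlapped there. The longest single domain reached 3429 and 3357 kb in LmnB1_16 and 2479 and 3371 kb in mCherry_3, so that maximum did not separate the clones. With domains under 10 kb left out, the LmnB1_16 lists no longer held more domains (a mean difference of -116).

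Most listed sequence was common to both clones. Of 678 Mb listed in any of the 4 libraries, 434 Mb (63.9%) was listed in all 4. The longest uninterrupted stretches shared by all 4 lay over NRG3, a neuregulin (chr10:81715001-84085000, 2370 kb), over FHIT and PTPRG at a common fragile site (chr3:59989001-62327000, 2338 kb), and over a stretch of chromosome 14 without a protein-coding gene (chr14:97142001-99096000, 1954 kb). Sequence listed in both LmnB1_16 libraries and neither mCherry_3 library came to 46.0 Mb (6.78%). The reverse, listed in both mCherry_3 libraries only, came to 18.7 Mb (2.75%). Within a clone, 113 Mb was listed in only 1 of the LmnB1_16 replicates and 89.0 Mb in only 1 of the mCherry_3 replicates. These lengths compare 2 libraries, so they cannot be set against lengths that need all 4 to agree. Taken by pairs, the shared part of the sequence listed in either library was 0.820 for the LmnB1_16 replicates and 0.845 for the mCherry_3 replicates. For pairs of libraries from different clones it was lower, 0.749 to 0.759. Cut to equal covered length, the lists gave 37.2 Mb for LmnB1_16 only and 38.6 Mb for mCherry_3 only, so the excess with LmnB1_16 was not kept. Without LmnB1_16 replicate 1 the values were 56.6 and 45.7 Mb, and without LmnB1_16 replicate 2 they were 95.3 and 22.9 Mb.

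Sequence particular to a clone was mostly in short pieces. The LmnB1_16-only sequence formed 3996 stretches with a median of 5 kb, and 67 of them reached 100 kb, with 11.9 Mb between them. The mCherry_3-only sequence formed 1866 stretches with a median of 4 kb, 15 of them of at least 100 kb. Of the LmnB1_16-only sequence, 50.5% lay in stretches over 100 kb from any sequence listed in all 4 libraries, and 19.9% within 10 kb of it. For mCherry_3 the shares were 36.0% and 24.8%. Protein-coding gene bodies took up 32.0% of LmnB1_16-only sequence, 28.9% of mCherry_3-only sequence and 28.6% of the sequence listed in all 4. The domains over LmnB1_16-only sequence had median log2 enrichments of 1.04 and 0.82, while those over mCherry_3-only sequence had 0.79 and 0.78 and so lay nearer to the floor.

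By chromosome, LmnB1_16 covered more of 15 of 23 chromosomes (65.2% of them) and less of 2 (8.7%), chromosomes 16 and X. Chromosomes 17 to 22 overlapped between the clones. The widest gap was on chromosome 4, where LmnB1_16 had 27.1 and 23.6 Mb and mCherry_3 had 20.4 and 20.2 Mb. Chromosome 14 held 21.7 and 18.4 Mb against 15.7 and 16.1 Mb. On chromosome 1 the values were 31.7 and 27.5 Mb against 24.9 and 23.9 Mb. In each of these, both LmnB1_16 libraries lay above both mCherry_3 libraries, and replicate 1 was the highest. Chromosome 16 ran the other way by a narrow gap, at 21.1 and 19.9 Mb for LmnB1_16 against 21.3 and 21.5 Mb for mCherry_3. Of the 15 higher chromosomes, 13 stayed apart in both trimmed versions of the lists. Chromosomes 11 and 15 did not. With X left out before the lists were cut to equal covered length, 8 chromosomes were higher and 10 lower, so the balance between chromosomes turned.

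**Figure D1:**
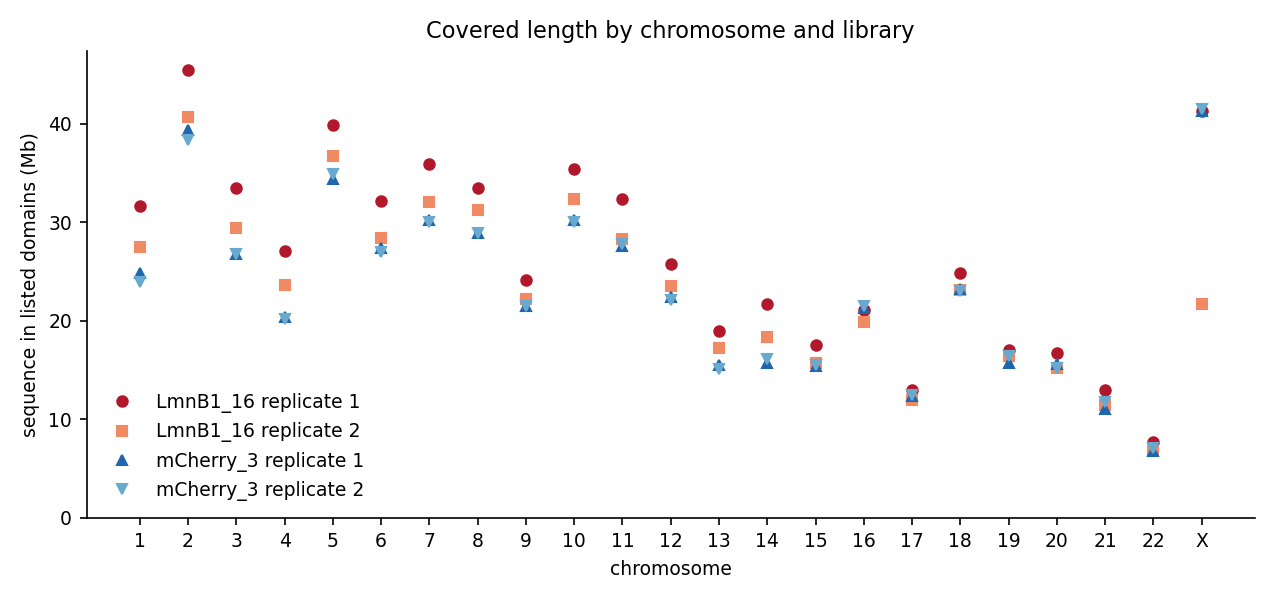
Sequence in listed domains (Mb, y axis) for each chromosome (x axis), with 1 symbol per library. LmnB1_16 replicate 1 lies highest on most autosomes, and LmnB1_16 replicate 2 falls to 21.7 Mb on chromosome X while the other 3 libraries lie between 41.3 and 41.6 Mb.

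Chromosome X showed a smaller enrichment relative to autosomes in LmnB1_16, beneath nearly equal covered lengths for 3 of the 4 libraries. The median log2 enrichment of X domains was 0.74 and 0.68 in LmnB1_16 and 0.71 in both mCherry_3 libraries, close to the floor in every list. The X medians thus overlapped between the clones. The autosomal medians did not, at 1.13 and 0.93 in LmnB1_16 and 0.90 and 0.88 in mCherry_3. Relative to the autosomes of the same library the X median was -0.38 and -0.26 in LmnB1_16 and -0.19 and -0.17 in mCherry_3. The read density of X, over sequence listed in all 4 libraries and relative to the library's mean, was -0.39 and -0.30 on the log2 scale in LmnB1_16 and -0.20 and -0.19 in mCherry_3. The clones thus did not overlap in this measure, with a gap of 0.11. When the lists were trimmed to equal covered length, X retained 9.80 and 19.5 Mb for LmnB1_16 against 41.1 and 41.6 Mb for mCherry_3. With floors at an equal distance below each library's own enrichment it retained 7.45 and 14.4 Mb against 38.5 and 41.6 Mb. Both ways of trimming cut mainly the LmnB1_16 lists from the lowest enrichment upward. X domains near the floor were thus among the first to go there, and part of the wider gap follows from the trimming. A change in the copy number of X in a clone would move the same values, since the input came from wild-type cells, and its part was not tested.

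Other chromosomes also differed in read density over the shared sequence, and not always as in covered length. Chromosome 1 stood at 0.19 and 0.15 above its library's mean on the log2 scale in LmnB1_16 and at 0.08 and 0.06 in mCherry_3. Chromosome 16 lay at -0.14 and -0.11 against -0.06 and -0.05. On chromosome 4 all 4 libraries stood at -0.01, although its covered length had the widest gap. In all, 11 chromosomes had a density that was higher in both LmnB1_16 libraries, and for 9 of these the covered length was higher too. Another 9 had a lower density in both, among them chromosomes 4, 8, 9, 10 and 11, whose covered length was higher. On those chromosomes the density gap was very small, from -0.0004 on chromosome 4 to -0.0128 on chromosome 8. It was -0.0525 on chromosome 16 and -0.106 on X. Some higher gaps were as small, such as 0.0035 on chromosome 6, against 0.0727 on chromosome 1.

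**Figure D2:**
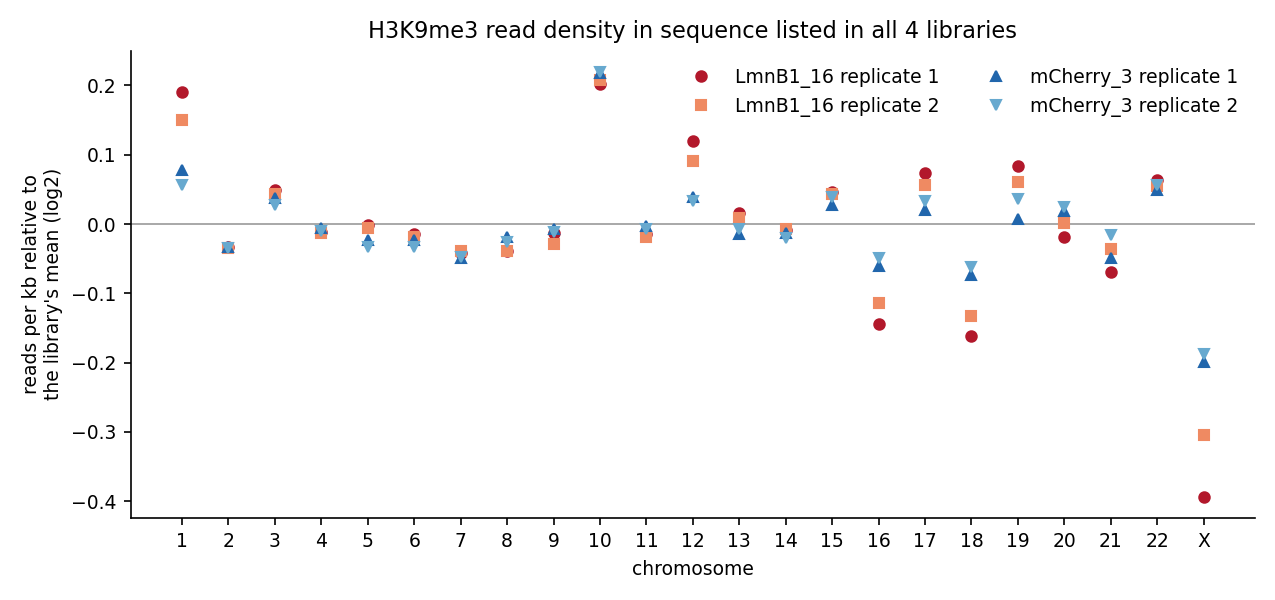
H3K9me3 reads per kb over sequence listed in all 4 libraries (y axis, log2 relative to the library's mean) for each chromosome (x axis), with 1 symbol per library. Both LmnB1_16 libraries lie below both mCherry_3 libraries on chromosomes 16 and X and above them on chromosome 1.

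In bins of 100 kb, 9786 had a mean covered share of at least 5% and were compared. The clones were apart in 2178 bins with LmnB1_16 higher (22.3%) and in 1125 with LmnB1_16 lower (11.5%), so that 65.9% of the bins apart were higher. With lists cut to equal covered length the split was 1827 against 1516 (54.7% higher), and with equal distance below the library's own enrichment it was 1705 against 1593 (51.7% higher). Without LmnB1_16 replicate 1 it was 2084 against 2161, so the excess of higher bins was not kept. Chromosome X, with little listed in LmnB1_16 replicate 2, was not set apart in that count. The balance of higher and lower bins thus moved with the floor of the lists. Chromosome X carried 44 higher and 154 lower bins in the lists as deposited, and 16 and 364 at equal covered length. On the autosomes the split was 2134 higher and 971 lower as deposited, and 1811 and 1152 at equal covered length. With X left out before that cut, it narrowed to 1476 and 1358. By limma, fitted across all bins with Benjamini-Hochberg adjustment, 1417 bins were higher (14.5%) and 448 lower (4.58%) at an adjusted p below 0.05, and 444 and 130 with all 4 libraries as separate samples. That fit has 1 residual degree of freedom and assumes that mCherry_3 varies like LmnB1_16, and many bins sit at exactly 0 or 100% in both replicates, so the text below rests on the separation of the libraries.

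**Figure D3:**
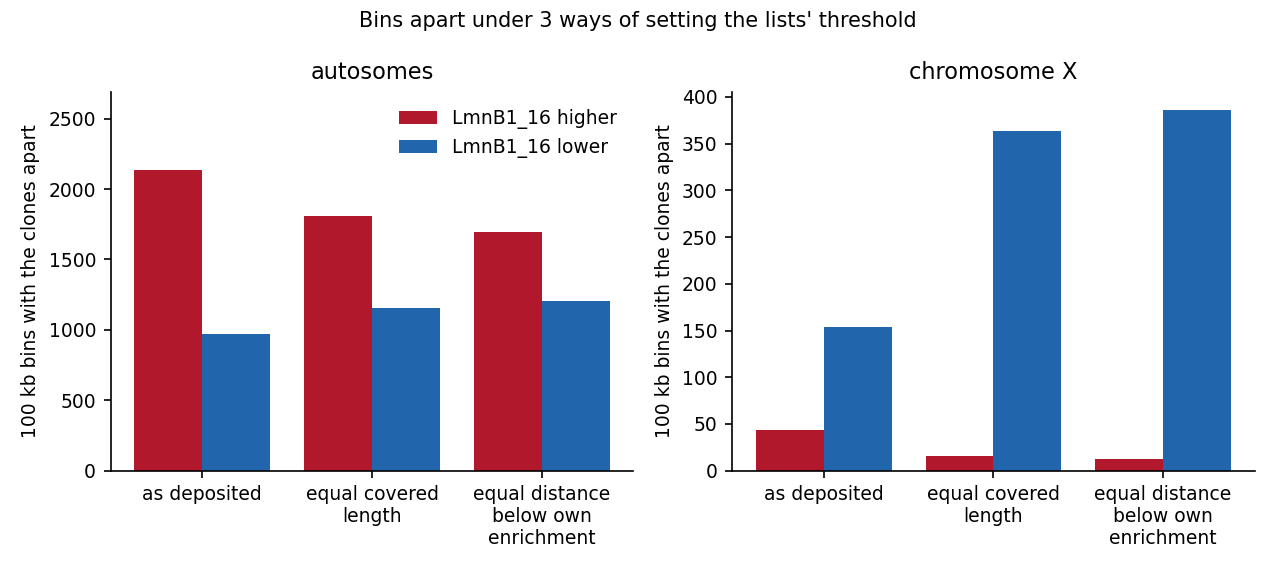
Number of 100 kb bins in which both libraries of one clone lie apart from both of the other (y axis), on the autosomes and on chromosome X, for the lists as deposited and with 2 other floors (x axis). On the autosomes higher bins outnumber lower ones in each case, from 2134 against 971 as deposited, and on X lower bins outnumber higher ones in each case. Leaving X out before the cut to equal covered length, not drawn here, gives 1476 against 1358 on the autosomes.

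A gap of at least 50 points was met by 265 bins with LmnB1_16 higher (2.71%) and 91 with LmnB1_16 lower (0.93%). Of these, 179 of the 265 and 89 of the 91 had such a gap in both trimmed versions too. The trimming cut mainly the LmnB1_16 lists, so lower bins could hardly lose their gap, and these shares cannot be compared between directions. The trimmed lists had more lower bins of this size than higher ones, 203 higher against 298 lower at equal covered length and 183 against 355 at equal distance, so the balance turned. Chromosome X held 173 of the 298 and 207 of the 355. On the autosomes the counts were 202 against 125 and 182 against 148. Joined where they touch, the 265 and 91 bins of the lists as deposited made 136 higher blocks of 26.5 Mb in all and 61 lower blocks of 9.1 Mb. Of the higher blocks 76 overlapped no protein-coding gene, and of the lower blocks 31. Chromosome X held 2 of the higher and 14 of the lower blocks. Chromosomes 8 and 14 had the most higher bins, 26 each, and chromosome 16 had 7 lower bins and none higher.

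**Figure D4:**
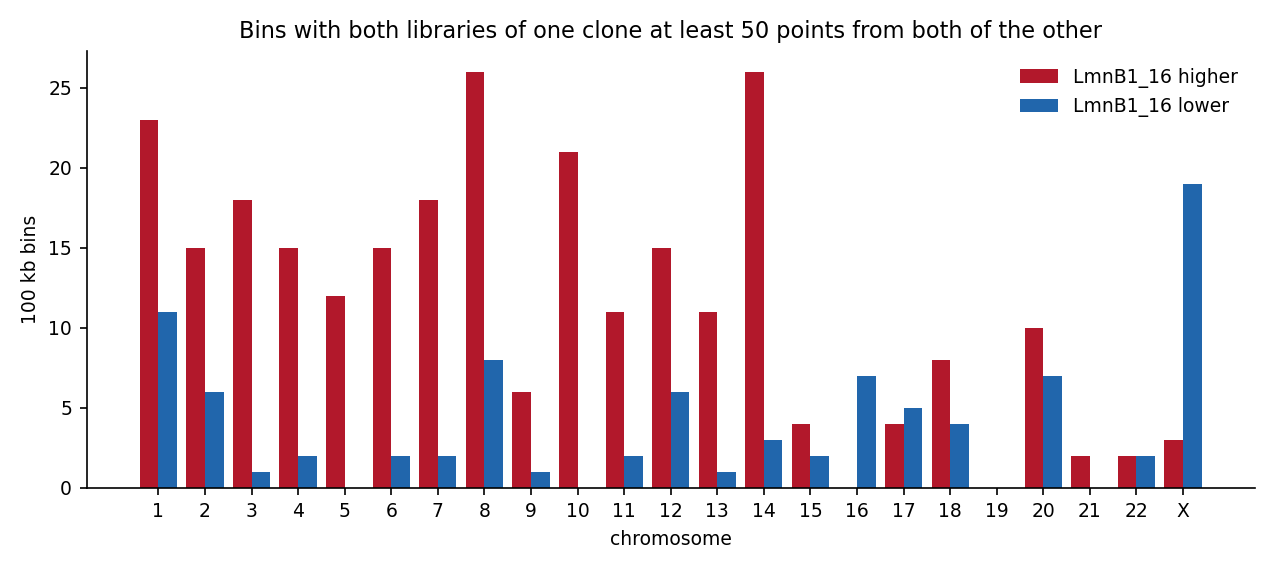
Number of 100 kb bins with a gap of at least 50 points (y axis) by chromosome (x axis), for LmnB1_16 higher and LmnB1_16 lower. Higher bins lead on most autosomes, with 26 each on chromosomes 8 and 14, and lower bins lead on chromosomes 16, 17 and X.

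The longest block higher with LmnB1_16 spanned 1700 kb of chromosome 10 (chr10:65700001-67400000). It was 99.7% and 99.1% covered in LmnB1_16 and not listed at all in either mCherry_3 library, whose nearest domains lay 154 and 152 kb away. The block holds most of CTNNA3, the gene of alpha-T-catenin, and within it LRRTM3, a synaptic leucine-rich repeat adhesion protein. CTNNA3 was 92.5% and 79.5% covered in LmnB1_16 and 0% in both mCherry_3 libraries. Its enrichment was modest, with a log2 of 0.89 and 0.75 in the main domain and 0.79 and 0.61 in the domain over LRRTM3. That last value sits at the floor, and with trimmed lists LRRTM3 was no longer apart while the block as a whole still differed by 63.9 points.

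A pair of neighbouring blocks on chromosome 14 came next (chr14:83600001-84400000 and chr14:84500001-85100000). The first was 98.9% and 97.8% covered in LmnB1_16 and 13.6% and 16.8% in mCherry_3, and held only LOC124903401. The second had no protein-coding gene and was 100% and 96.2% covered against 4.17% and 5%. Their domains reached log2 enrichments of 1.13 and 0.91 in the first and 1.03 and 0.92 in the second. The replicate 2 values lay above the floor but just below that library's median of 0.94 over the sequence common to all lists. With only domains of a log2 enrichment of at least 1, LOC124903401 stayed 100% covered in replicate 1 and fell to 0% in replicate 2. Other long blocks higher with LmnB1_16 lay in sequence without protein-coding genes on chromosome 6 (chr6:153400001-153900000, 98% and 94.2% against 0% in both mCherry_3 libraries) and chromosome 13 (chr13:103300001-103800000, 98.6% and 99.4% against 4.4% and 5.8%). The main domain on chromosome 6 had log2 enrichments of 0.87 and 0.64 in LmnB1_16, the latter near the floor. On chromosome 13 they were 1.48 and 1.18. A block on chromosome 8 over CNBD1 stood at 98% and 96.2% against 11.2% and 14.6%.

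The longest block lower with LmnB1_16 was 400 kb on chromosome 16 (chr16:20100001-20500000), 0% and 3% covered in LmnB1_16 and 89.5% and 88.5% in mCherry_3. It holds GP2, the gene of the major glycoprotein of zymogen granules, UMOD, the gene of uromodulin, PDILT, and the acyl-CoA synthetases ACSM5 and ACSM2A. UMOD was 0% covered in both LmnB1_16 libraries and 82.8% and 100% in mCherry_3. ACSM5 was 0% in both against 80.1% and 76.9%. Domains there had log2 enrichments of 0.75 and 0.78 in mCherry_3. On chromosome 12 a block over NELL2, a secreted neuronal protein (chr12:44500001-44800000), was 0% covered in both LmnB1_16 libraries and 88.7% and 98.3% in mCherry_3. A block without a protein-coding gene on chromosome 16 (chr16:51700001-52000000) stood at 9% and 0% against 98.3% and 100%. On chromosome X, blocks over VCX3B (0% in both against 89% and 86.3%) and over SHROOM4, an actin-binding protein (13.3% and 0% against 98% and 92.3%), were lower with LmnB1_16 as the chromosome was.

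Of 19974 protein-coding genes, 2396 had a mean covered share of at least 5% and were compared, and 17578 did not pass. The clones were apart in 498 genes with LmnB1_16 higher (20.8%) and 330 with LmnB1_16 lower (13.8%), so 60.1% were higher. At equal covered length the split was 447 against 392 (53.3% higher) and at equal distance 423 against 408 (50.9% higher). Without LmnB1_16 replicate 1 it was 514 against 547, and at equal covered length without chromosome X it was 364 against 391, so the direction turned in both. The limma fit across all genes called 310 higher (12.9%) and 208 lower (8.68%), and 138 and 64 with all 4 libraries as separate samples. A gap of at least 50 points was met by 74 genes with LmnB1_16 higher (3.09%) and 48 with LmnB1_16 lower (2%). Of these, 53 and 45 kept such a gap in both trimmed versions. As with bins, the trimming could hardly remove the gap of a lower gene. The trimmed lists gave 60 higher against 79 lower at equal covered length and 54 against 89 at equal distance, so the direction turned for this count. In 29 genes the whole body was covered in both LmnB1_16 libraries and none of it in mCherry_3, and in 20 genes the reverse held.

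Among the genes covered in full in LmnB1_16 and not at all in mCherry_3 were some transcription factors. FOXA2, a pioneer factor of endoderm, SALL3, a zinc finger factor of limb and neural development, and NOBOX, a homeobox factor of the oocyte, were each 100% covered in both LmnB1_16 libraries and 0% in both mCherry_3 libraries. HSPB8, a small heat shock protein that works with BAG3 in selective autophagy, had the same values. HSPB8 lay inside domains of 840 and 823 kb with log2 enrichments of 1.35 and 1.11 in LmnB1_16, and the nearest mCherry_3 domains were 101 and 87.9 kb away. The enrichment over HSPB8 was thus far from the floor of the lists. HSPB8, CRISPLD1, NOBOX and ZNF417 kept the full gap when only domains with a log2 enrichment of at least 1 were used. That cut cannot add mCherry_3 coverage, so it shows only that the LmnB1_16 domains over these genes reached that level. FOXA2 lay in domains of 996 and 479 kb with enrichments of 1.13 and 0.87, and the mCherry_3 domains ended 43.0 and 31.0 kb away. For SALL3 the domains measured 1561 and 307 kb with enrichments of 1.09 and 0.92, and mCherry_3 domains came within 7.82 and 15.8 kb. CRISPLD1, a secreted cysteine-rich protein, and ZNF417, a zinc finger gene on chromosome 19, were also 100% covered in LmnB1_16 and 0% in mCherry_3, with mCherry_3 domains ending 12.5 and 0.50 kb from the former and 2.41 and 6.41 kb from the latter.

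Among the genes named in this direction, 4 rested on domains near the floor: LRRTM3, the olfactory receptors OR51L1 and OR51C1, and KRT34, a hair keratin. KRT34 sat in domains of 18 and 22 kb with log2 enrichments of 0.79 and 0.63. All 4 had no gap left once the lists were trimmed to equal covered length, or with floors at an equal distance below each library's own enrichment.

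The 12 genes named in the other direction were covered in full in mCherry_3 and not at all in LmnB1_16. EDN3, the ligand endothelin-3 of neural crest cells, GP2, AQP4, the water channel of astrocytes, CD209, a lectin of dendritic cells, ENPP4 and ENPP5, ectoenzymes that lie side by side on chromosome 6, RDH16, a retinol dehydrogenase, and BMP15, an oocyte growth factor on chromosome X, were 0% covered in both LmnB1_16 libraries and 100% in both mCherry_3 libraries. The same held for PPDPFL, OR2J3, SPRR2B and SPRR2F. AQP4 lay in mCherry_3 domains of 677 and 525 kb with log2 enrichments of 0.89 and 0.85, and the nearest LmnB1_16 domains were 33.2 and 64.2 kb away. EDN3 lay in domains of 254 and 95 kb with enrichments of 0.79 and 0.71, and the nearest LmnB1_16 domains were 40.0 and 171 kb away. All 12 of these genes kept the full gap in both trimmed versions of the lists. The trimming nearly ensures this, since it cut mainly the LmnB1_16 lists. With only domains of a log2 enrichment of at least 1, none of the 12 had a gap. That cut lies above the mCherry_3 medians of 0.90 and 0.88 over the sequence common to all lists. Genes covered in mCherry_3 alone could thus hardly keep a gap under it. BMP15 belongs to the chromosome X values described above.

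The promoters of 6 of these genes are shown, picked for a contrast in CG content. They do not stand for all named genes: NOBOX (4 CG) and KRT34 (0 CG) were listed in LmnB1_16 alone, and ENPP5 (18 CG) in mCherry_3 alone. The sequences were taken from the RefSeq table for GRCh38.p14 and written 5′ to 3′ in the direction of the gene. Each window runs from 250 bases before to 50 after the start in that table, with each CG in capitals. The window of LRRTM3 lies inside the gene body used for coverage, since the promoter table starts that gene further downstream. The first 4 were listed in both LmnB1_16 libraries and neither mCherry_3 library. The last 2 were listed in both mCherry_3 libraries and neither LmnB1_16 library.
SALL3 (chr18:78979568-78979867, + strand, 59 CG): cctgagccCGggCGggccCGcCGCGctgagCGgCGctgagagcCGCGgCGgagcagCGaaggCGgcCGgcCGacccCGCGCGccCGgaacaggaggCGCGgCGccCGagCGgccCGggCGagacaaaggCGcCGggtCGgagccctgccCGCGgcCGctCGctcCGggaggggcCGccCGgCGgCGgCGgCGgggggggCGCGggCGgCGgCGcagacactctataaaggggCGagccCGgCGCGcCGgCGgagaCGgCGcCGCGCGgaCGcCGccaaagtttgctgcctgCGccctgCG
HSPB8 (chr12:119178681-119178980, + strand, 15 CG): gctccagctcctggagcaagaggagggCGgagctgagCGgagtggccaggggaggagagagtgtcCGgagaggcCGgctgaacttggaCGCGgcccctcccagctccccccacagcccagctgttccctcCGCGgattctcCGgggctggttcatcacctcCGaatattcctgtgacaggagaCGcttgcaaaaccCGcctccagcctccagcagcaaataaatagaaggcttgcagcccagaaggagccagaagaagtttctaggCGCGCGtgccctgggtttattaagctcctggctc
PCDHAC2 (chr5:140966226-140966525, + strand, 15 CG): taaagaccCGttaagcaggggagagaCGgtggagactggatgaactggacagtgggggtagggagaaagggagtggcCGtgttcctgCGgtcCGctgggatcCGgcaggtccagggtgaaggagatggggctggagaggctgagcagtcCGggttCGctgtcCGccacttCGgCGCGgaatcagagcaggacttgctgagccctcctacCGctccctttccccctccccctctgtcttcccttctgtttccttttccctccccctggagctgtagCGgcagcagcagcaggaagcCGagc
LRRTM3 (chr10:67012016-67012315, + strand, 2 CG): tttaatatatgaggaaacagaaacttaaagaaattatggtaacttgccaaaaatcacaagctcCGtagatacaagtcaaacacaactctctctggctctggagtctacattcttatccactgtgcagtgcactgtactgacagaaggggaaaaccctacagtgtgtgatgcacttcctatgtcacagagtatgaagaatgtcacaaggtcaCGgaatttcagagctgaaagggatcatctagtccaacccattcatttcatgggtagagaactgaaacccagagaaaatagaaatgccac
GP2 (chr16:20327464-20327763, - strand, 5 CG): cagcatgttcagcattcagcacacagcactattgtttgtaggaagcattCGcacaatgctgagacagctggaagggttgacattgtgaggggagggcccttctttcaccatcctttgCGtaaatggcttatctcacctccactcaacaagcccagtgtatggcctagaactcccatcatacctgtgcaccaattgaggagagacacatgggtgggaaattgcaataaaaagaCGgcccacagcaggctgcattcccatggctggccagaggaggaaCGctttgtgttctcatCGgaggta
AQP4 (chr18:26865754-26866053, - strand, 2 CG): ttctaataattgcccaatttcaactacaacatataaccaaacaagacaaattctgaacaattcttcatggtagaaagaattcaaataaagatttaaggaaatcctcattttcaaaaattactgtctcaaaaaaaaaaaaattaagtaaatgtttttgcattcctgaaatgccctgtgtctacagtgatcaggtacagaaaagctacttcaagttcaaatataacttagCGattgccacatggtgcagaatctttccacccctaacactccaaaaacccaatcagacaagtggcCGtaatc

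Promoters listed in LmnB1_16 alone were richer in CG than those listed in mCherry_3 alone. A promoter was counted as listed when its whole window lay in a domain, and CG reads alike on both strands. Of 15812 promoters matched by symbol, 526 were listed in all 4 libraries, 89 in both LmnB1_16 libraries only and 52 in both mCherry_3 libraries only, while 14657 were listed in no library. The median number of CG per window was 12 for LmnB1_16 only, 3 for mCherry_3 only, 6 for all 4 libraries, 23 for no library and 22 for all promoters. Windows with 10 or more CG made up 57.3% of the LmnB1_16-only promoters and 26.9% of the mCherry_3-only promoters, against 73.0% of all promoters. Neighbouring promoters of gene families share domains, so these counts are descriptions.

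The clustered protocadherins, cell-surface recognition proteins of neurons encoded in 3 tandem arrays on chromosome 5, held 16 genes with a gap of at least 50 points, more than any other list. Of 53 members 49 passed the filter on covered share, and 27 of these were higher with LmnB1_16 (55.1%, against 20.8% of all genes compared) and none lower. Their median difference was 22.6 points, against 0 over all genes compared. The difference lay mainly in the alpha array (chr5:140786140-141012347). All 15 alpha genes had a gap of at least 50 points, and the median covered share was 100% and 96.2% in LmnB1_16 and 10.2% and 0% in mCherry_3. These bodies overlap and end at the same place, so the 15 genes are close to 1 observation. PCDHAC2, the alpha gene nearest the beta array, was 100% covered in both LmnB1_16 libraries and 0% in both mCherry_3 libraries, in domains of 253 and 108 kb with log2 enrichments of 0.98 and 0.80.

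The other protocadherin arrays behaved differently. In the beta array the median was 100% in all 4 libraries, and only PCDHB1, the gene next to the alpha array, was apart (100% in both LmnB1_16 libraries against 0% in both mCherry_3 libraries). In mCherry_3 replicate 2, PCDHB12 was listed at 0% while the other 3 libraries covered it in full. In the gamma array the medians were 34.8%, 11.7%, 0% and 0%, and 12 of 22 genes were apart, none by 50 points. The gamma bodies also overlap and end at the same place, so the 12 are close to 1 observation. The 27 genes apart in the whole group are therefore far fewer observations than genes. PCDHGA12, 1 of the 12, did not pass the filter on covered share and is not among the 27. PCDHGA10 stood at 20.02% and 17% in LmnB1_16 and 0% in both mCherry_3 libraries. At equal covered length the whole group again gave 27 higher and 0 lower. With floors at an equal distance below each library's enrichment 16 were higher and 0 lower. With only domains of a log2 enrichment of at least 1, the difference at PCDHAC2, PCDHB1, PCDHAC1 and PCDHA8 was 0. Of the 47 promoters of the group that could be matched, 43 and 23 were listed in LmnB1_16 and 17 and 15 in mCherry_3.

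**Figure D5:**
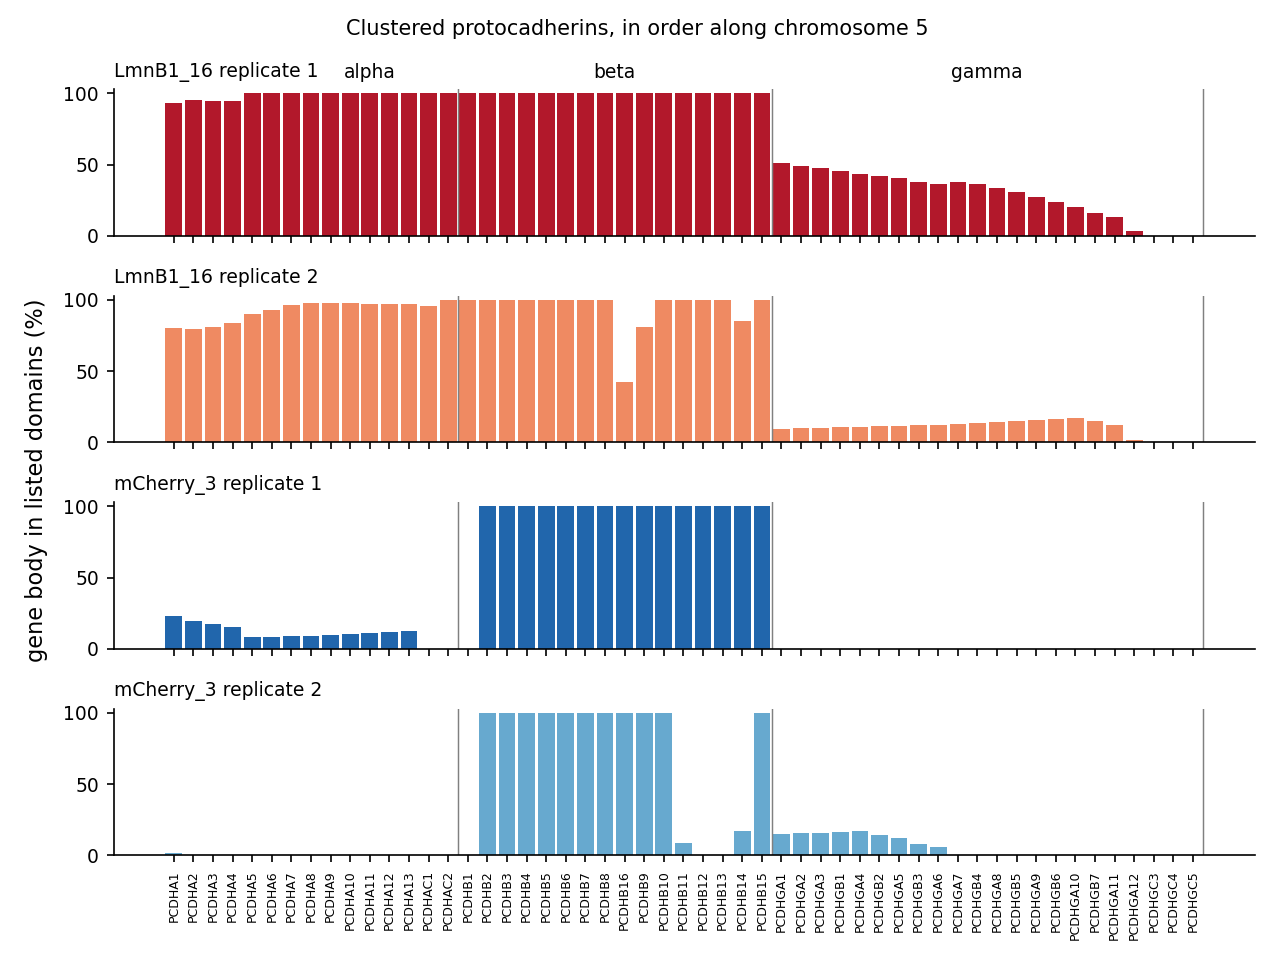
Share of each clustered protocadherin gene body in listed domains (y axis, percent), with the genes in order along chromosome 5 (x axis) and 1 panel per library. The alpha genes are nearly filled in both LmnB1_16 libraries and at most 22.9% covered (PCDHA1) in the mCherry_3 libraries, while most beta genes are filled in all 4.

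Synaptic adhesion genes, which encode contactins, neurexins and other bridging proteins of synapses, were more often higher with LmnB1_16, by small amounts. Of 62 members 28 were compared, 15 were higher with LmnB1_16 (53.6%, against 20.8% of all genes compared) and 2 lower (7.14%, against 13.8%), and 13 genes were over 90% covered in all 4 libraries. The median difference was 1.69 points. At equal covered length 13 were higher and 4 lower, and at equal distance 12 and 4. DSCAM was 100% and 98.1% covered in LmnB1_16 and 81.4% and 85.9% in mCherry_3. ADGRL3, a latrophilin, stood at 98.9% and 98.5% against 82.2% and 91.0%. NCAM1 ran the other way, at 19.9% and 9.02% against 53.3% and 35.0%. Receptors for glutamate, GABA and glycine had 3 higher (15.8%) and 4 lower (21.1%) of 19 compared. Potassium channels had 3 higher (15%) and 2 lower (10%) of 20, KCNA6 among the latter at 27.9% and 13.6% against 87.8% and 92.6%. Type II and related cadherins had 2 higher (50%) and 0 lower of 4, and non-clustered protocadherins 1 higher (16.7%) and 0 lower of 6.

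Zinc finger genes on chromosome 19, whose tandem clusters are a well-known target of H3K9me3, were for the most part covered in both clones. Of 246 members 205 were compared, and 73 were over 90% covered in all 4 libraries. The clones were apart in 47 with LmnB1_16 higher (22.9%, near the 20.8% of all genes) and in 8 with LmnB1_16 lower (3.9%, against 13.8% of all genes). The median difference was 2.81 points, and 3 genes had a gap of 50 points. ZNF529 was 100% covered in both LmnB1_16 libraries and 42.6% and 36.1% in mCherry_3. ZNF850 was 100% in both against 49.5% and 46.1%. Zinc finger genes on other chromosomes had 22 higher (18.8%) and 18 lower (15.4%) of 117 compared, both near the shares of all genes. ZNF516 was 82.4% and 78.1% covered in LmnB1_16 and 22.6% and 0% in mCherry_3, while ZNF860 was 40.5% and 44.5% covered against 81.0% and 85%.

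Few olfactory receptor genes were apart between the clones, and those that were split by chromosome. The clones were still not alike in this group. Receptors over 50% covered numbered 174 and 151 in LmnB1_16 and 138 and 133 in mCherry_3. Over all genes these counts were 1281 and 1113 against 1119 and 1155. On chromosome 1 the mean covered share was 95.6% and 94.2% in LmnB1_16 and 87.4% and 63.9% in mCherry_3, so the mCherry_3 replicates differed there. Of 392 members 184 were compared, and 105 were over 90% covered in all 4 libraries. With LmnB1_16, 11 were higher (5.98%, against 20.8% of all genes compared) and 7 lower (3.8%, against 13.8%). The higher ones lay on chromosome 1, with 5, and chromosome 11, with 6. Of the lower ones 4 lay together on chromosome 6, among them OR2J3. OR2T27 on chromosome 1 was 100% covered in both LmnB1_16 libraries and 0% in both mCherry_3 libraries. At equal covered length 5 were higher and 8 lower, so the direction of this group turned with the floor.

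Cornified envelope genes, the barrier proteins of the skin in the epidermal differentiation complex of chromosome 1, included a run of neighbours that differed between the clones. Of 39 members 30 were compared, and 17 were over 90% covered in all 4 libraries. With LmnB1_16, 2 were higher (6.67%, against 20.8% of all genes compared) and 7 lower (23.3%, against 13.8%), all 7 by at least 50 points. The 7 are neighbours: SPRR1B, SPRR2D, SPRR2A, SPRR2B, SPRR2E and SPRR2F were 0% covered in both LmnB1_16 libraries and 100% in both mCherry_3 libraries, and SPRR2G was 0% in both against 92.0% and 73.4%. SPRR3, SPRR1A, SPRR4 and SPRR5 of the same family and IVL, the gene of involucrin, were 100% covered in all 4 libraries. The mCherry_3 domains over SPRR2B measured 400 and 181 kb with log2 enrichments of 0.87 and 0.84. The nearest LmnB1_16 domains were 44.2 and 42.2 kb from SPRR2B. SPRR1B, SPRR2A and SPRR2F lay in the same mCherry_3 domains, so the 7 neighbours are close to 1 observation. The 2 higher members were RPTN (25% and 7.2% against 0% in both) and LCE1E (80.4% in both against 34.3% and 0%).

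Smaller groups had few members in domains. Of all genes compared, 20.8% were higher and 13.8% lower. Among FOX, SOX, GATA and PAX factors 12 of 86 were compared, with FOXA2 and SOX30 higher and SOX6 and PAX5 lower (16.7% each way). PAX5, a factor of B cells, was 2.99% and 4.98% covered in LmnB1_16 and 24.9% and 21.4% in mCherry_3. IL36A, an epithelial interleukin, was 100% covered in both LmnB1_16 libraries and 0% and 9.65% in mCherry_3. Of 44 collagen genes 13 were compared, 4 higher (30.8%) and 2 lower (15.4%), and of 6 cytochrome P450 genes compared 1 was higher and 1 lower (16.7% each way). CYP2B6, a drug-metabolising enzyme, was 0% in both LmnB1_16 libraries and 54.3% and 91.2% in mCherry_3. Keratins gave 2 higher of 7 compared (28.6%) and keratin-associated proteins 1 higher of 46 (2.17%). HOX genes, taste receptors, beta-defensins and chemokines gave none apart of 1, 2, 6 and 11 compared.

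Genes of the nuclear lamina and envelope were largely outside domains in both clones. Of 47 members, LMNB1 among them, 40 were at 0% in all 4 libraries and 4 were compared. Of these 4, 2 were higher (50%, against 20.8% of all genes compared) and 1 lower (25%, against 13.8%). NUP210, a pore membrane protein, was 87.5% and 44.2% covered in LmnB1_16 and 14.4% and 11.5% in mCherry_3, but turned to -10.1 points at equal covered length. NUP210L stood at 6.77% and 0% against 16% and 19.7%. Of 23 genes of H3K9 methylation and heterochromatin none passed the filter, and 18 were at 0% in all 4 libraries.

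Markers of the stated cell type and of other cell types were mostly outside domains. Of 14 retinal pigment epithelium markers 13 were at 0% in all 4 libraries. The exception was OTX2, a homeobox factor of eye and forebrain, 100% and 29.3% covered in LmnB1_16 and 0% in both mCherry_3 libraries. The LmnB1_16 replicates were unequal there (limma adjusted p = 0.816), and OTX2 was not apart in either trimmed version. Of 10 fibroblast or mesenchyme markers 9 were at 0% in all 4 libraries, and PDGFRA was 15.95% covered in both LmnB1_16 libraries and 20.3% and 26.1% in mCherry_3. Of 10 photoreceptor markers 7 were at 0% in all 4 libraries and none was apart, and of 5 immune cell markers none was compared.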

How the data were processed

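H3K9me3 Cut&Run domains of 4 libraries, 2 from LmnB1_16 and 2 from mCherry_3, were compared. Per the submitters' processing notes the tools were deepTools, SICER, DESeq2 and DiffBind 3.0.15, with no role given for any, on the build GRCh38 (hg38). Which aligner was used is not given in the sources used. Each deposited list holds the domains of 1 library on steps of 1 kb. For each domain the authors give the count of H3K9me3 reads, the count of input reads, a p-value and an adjusted p-value, the log2 enrichment over input, and a score. The deposited log2 enrichment follows from the 2 counts and a depth term that is the same for a whole list, and the score deposited is that log2 times 100. One input of wild-type cells serves all lists. Counts exist only inside a library's own domains, so no count model was fitted.

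From the lists, the covered percent was computed for bins of 100 kb, for 19974 protein-coding gene bodies of the GRCh38 table, and in Mb for 23 chromosomes, with chromosome Y left out. Bins and genes with a mean of at least 5% were compared by the separation of the libraries, and with limma 3.58.1 in R 4.3.3 on covered percent, tested on simulated data first. The mCherry_3 pair entered as its mean, counted as 1 sample. Genes named are the 12 per direction with the widest gap, longer genes first among ties, plus up to 4 per list. Blocks named are from the 8 longest per direction, and 29 gene lists were counted. Other genes named inside blocks, protocadherin arrays and the cornified envelope list were chosen after their values were seen. Tables were made with Python 3.11.15 and pandas 2.3.3. The clones, gene lists and tests were chosen with earlier results of these data known. Read densities assume that a domain's reads are spread evenly over it, and their error covers counting only. FOXA2 and other genes without an entry in the promoter table have no sequence shown.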

Additional observations from a re-analysis of the deposited data

How the results depend on the processing

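Values that follow are differences or counts as LmnB1_16 relative to mCherry_3, higher before lower. Across all alternatives, 118 summary values kept their direction and stayed within 1.5 times, 72 moved further and 4 turned, and of the values for named genes and blocks 714 stayed, 167 moved by more than the spread between replicates and 15 turned. The settings without chromosome X, with floors at an equal distance below each library's own enrichment, and at equal covered length without chromosome X were chosen after seeing the data.

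The covered length differed by -0.181 Mb at equal covered length, by -11.2 Mb at equal distance and by -0.077 Mb at equal covered length without X, the first and last by construction. The domain number differed by -116 with domains of at least 10 kb. At equal covered length, 5 chromosomes were lower, 38.6 Mb was listed in mCherry_3 only, and limma called 852 bins lower. At equal distance these values were 7, 43.6 Mb and 963. Without X, 1 chromosome was lower. At equal covered length without X, 8 chromosomes were higher and 10 lower, 26.9 Mb and 29.2 Mb were particular to the clones, 364 genes were higher and 391 lower, and limma called 793 bins lower. With a log2 enrichment of at least 1, 189 bins, 78 genes and 0 chromosomes were lower, 117 Mb was in LmnB1_16 only and 1.77 Mb in mCherry_3 only, and limma called 59 bins and 43 genes lower.

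With no filter on low coverage 3381 bins and 982 genes were higher, and limma called 931 bins and 326 genes lower. Minus the library mean, 4468 bins and 542 genes were lower, because bins full in all 4 libraries then differ by the means alone, and limma called 418 and 266 bins and 68 and 57 genes. In bins of 50 kb 3528 were higher, and limma called 2543 and 1114. In bins of 500 kb 776 and 383 were apart, and limma called 0 and 0 of 2210 bins, with 326 and 143 at an unadjusted p below 0.05. A gap of at least 10 points left 1065 and 495 bins and 269 and 155 genes, and of at least 50 points 265 and 91 bins and 74 and 48 genes. With all 4 libraries as separate samples limma called 444 and 130 bins and 138 and 64 genes.

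With each library left out in turn, fewer libraries have to separate, which makes the separation easier to meet by construction. The covered length difference ran from 5.85 Mb (without LmnB1_16 replicate 1) to 81.9 Mb (without LmnB1_16 replicate 2), the domain number from 1040 to 5234 and the median length from -9.5 to -6.5 kb. Bins apart ran from 2084 to 3524 higher and from 1415 to 2161 lower, genes from 514 to 806 and from 409 to 547, and chromosomes from 15 to 21 and from 2 to 5. Sequence in LmnB1_16 only ran from 56.6 to 95.3 Mb and in mCherry_3 only from 22.9 to 45.7 Mb. Limma called 548 to 1064 bins higher and 237 to 424 lower, and 170 to 335 genes higher and 87 to 176 lower. Where 1 LmnB1_16 library was left out, the mCherry_3 libraries entered separately and the lone sample is assumed to vary like them.

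The libraries share replicate numbers only: the replicate differences of the clones correlated at -0.0162 over bins and -0.0213 over genes. With the replicate block limma called 63 and 10 bins and 59 and 30 genes, and no sample is paired by it.

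Of the named genes, GABRA3 turned to -19.3 points at equal covered length and -24.8 at equal distance, and NUP210 to -10.1 at equal covered length, at equal distance and at equal covered length without X. With a log2 enrichment of at least 1, NUP210 gave -2.88, GLRA2 3.57, GRIN2B 38.1, SOX6 26.5, PDGFRA 5.80, the fourth longest higher block (SSU72L6) -3.08 and the eighth longest lower block (AQP4) 0.25. With windows at both gene ends, NCAM1 gave 7.50, COL6A1 -2.50 and PDGFRA 10.6. The cause was not tested. Depth limits short domains near the floor, and the floor of 0.6 limits what an unlisted region shows.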

Other observations

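Several genes outside the rule for named genes, chosen here after their values were seen, also had a gap of at least 50 points in the deposited lists and in both trimmed versions. WNT7A, a Wnt ligand, was 100% and 93.7% covered in LmnB1_16 and 1.16% and 7.43% in mCherry_3. GRK3, a receptor kinase, stood at 100% and 98.0% against 14.8% and 11.7%. APCS, the gene of serum amyloid P, was 100% covered in both LmnB1_16 libraries and 0% in both mCherry_3 libraries.

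In the other direction, the adhesion receptors ADGRF5 and ADGRF1, neighbours on chromosome 6, were 15.1% and 17.1% and 0% in both LmnB1_16 libraries, against 100% in both and 94.8% and 72.4% in mCherry_3. LMX1A, a homeobox factor of midbrain neurons, was 7.19% and 0% covered in LmnB1_16 and 80.2% and 64.0% in mCherry_3. GYPC, an erythrocyte glycophorin, stood at 34.2% and 14.4% against 90.1% and 100%.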
